A study of Mus musculus with 9 samples.

Results

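Voltage-gated sodium channel subunits and hyperpolarisation-activated (HCN) channel subunits were read on 9 arrays of cultured mouse cortical neurons. The group was named as 8 genes, and its members were every probe whose RefSeq identifier maps to Scn1a, Scn3a, Scn8a, Scn2b, Scn3b, Scn4b, Hcn2 or Hcn4. That rule found 10 probes for 7 of the genes, among 41174 non-control probes in all, and 9 of the 10 passed the filter on dim signal that left 27779 probes to test. No probe carried an identifier of Scn4b, which is not analysed here. The neurons came from C57bl/6 embryos on embryonic day 15 and grew in vitro for 12 days. One group then received 25 µM bicuculline for 6 h, another received 50 mM potassium chloride (KCl) for 6 h, and the control group received no treatment, with 3 arrays in each group. Bicuculline blocks GABA-A receptors and so releases network firing, while raised KCl depolarises the membrane directly. The labels do not say whether the arrays of a group came from separate cultures, so the p-values reflect how far these arrays differ from each other, and that difference may be technical.

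A voltage-gated sodium channel is a large pore-forming alpha subunit joined by smaller beta subunits, and it carries the inward current of the action potential. In cortical neurons the channels are densest at the axon initial segment, where spikes start, and the alpha subunit in use changes during development. HCN channels are tetramers that open on hyperpolarisation, bind cyclic AMP and pass a mixed sodium and potassium current that sets resting excitability.

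Signals are given as relative signal, the processed signal of a probe divided by the 75th percentile of its array over non-control spots. A relative signal depends on the probe as well as on the transcript, so levels are compared between arrays and never between probes. That percentile was 1805 to 2049 intensity units on the bicuculline arrays, 1586 to 1679 on the KCl arrays, and 3087, 1804 and 2634 on control arrays 1 to 3. The software marked 65.0% to 75.9% of spots per array as well above background and 0 as saturated. The stimuli reached the cells as read by Fos, an immediate early gene, which rose by a log2 change of 2.76 ± 0.04 under bicuculline and 4.47 ± 0.04 under KCl (limma, SE, adjusted p = 1.0e-08 and 1.1e-09). Of the 8 activity genes listed, 6 rose and 2 fell under bicuculline, and 7 rose and 1 fell under KCl. Those that fell were Arc (-0.65, adjusted p = 5.9e-05) and Egr1 (-0.59, 1.1e-05) under bicuculline, and Egr1 (-0.63, 2.0e-06) under KCl. Of all genes read by their brightest tested probe, 42.3% were called under bicuculline and 70.8% under KCl. All 6 neuronal markers were well above background on every array, as were all 6 astrocyte markers.

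The largest change among the members was in Scn8a, which encodes Nav1.6, the main sodium channel of the mature axon initial segment and of nodes of Ranvier. Scn8a fell under both stimuli and by both of its probes. Probe 1 (A_52_P183239) had relative signals of 14.8, 14.3 and 14.8 on the bicuculline arrays, 13.6, 14.1 and 14.0 on the KCl arrays, and 20.2, 20.0 and 19.7 on the control arrays. Every stimulated array lay below every control array, and the bicuculline and KCl arrays did not overlap either. The log2 change of probe 1 was -0.45 ± 0.03 under bicuculline, which leaves 73.3% of the control signal (95% interval 69.7% to 77.1%, adjusted p = 2.5e-05). Under KCl it was -0.52 ± 0.03, or 69.6% of the control signal (66.1% to 73.2%, adjusted p = 2.9e-06). Probe 2 of Scn8a (A_51_P125695) had relative signals of 0.369, 0.388 and 0.381 under bicuculline, 0.349, 0.363 and 0.393 under KCl, and 0.556, 0.583 and 0.546 in controls. Here the stimulated groups overlapped each other and stayed clear of the controls. Its log2 change was -0.57 ± 0.05 under bicuculline (adjusted p = 1.0e-04) and -0.61 ± 0.05 under KCl (adjusted p = 2.0e-05). Both probes carry the same RefSeq transcript identifier. An exact two-sided permutation test of the difference between the changes read by the probes gave p = 0.10 under bicuculline and 0.30 under KCl. The smallest p that 3 arrays against 3 allow is 0.1. The test could therefore not pass at 0.05, and it does not decide whether the probes differ.

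Scn1a encodes Nav1.1, the alpha subunit on which fast-spiking interneurons depend and whose loss of 1 copy causes Dravet syndrome in humans. It was lower under both stimuli. Its probe (A_51_P509551) gave relative signals of 1.38, 1.54 and 1.47 under bicuculline, 1.51, 1.44 and 1.43 under KCl, and 1.72, 1.91 and 1.74 in controls. The stimulated groups lay over the same range, and neither overlapped the controls. The log2 change was -0.29 ± 0.06 under bicuculline, or 81.7% of control (74.6% to 89.5%, adjusted p = 4.7e-03), and -0.29 ± 0.06 under KCl, or 81.6% of control (74.5% to 89.4%, adjusted p = 2.1e-03).

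Scn3a encodes Nav1.3, the alpha subunit that prevails in embryonic and newborn cortex and wanes as neurons mature. Probe 1 of Scn3a (A_52_P210781) gave relative signals of 0.224, 0.239 and 0.235 under bicuculline, 0.288, 0.285 and 0.255 under KCl, and 0.297, 0.314 and 0.309 in controls. The 3 groups formed separate steps, with bicuculline lowest and KCl between it and the controls. The log2 change was -0.40 ± 0.06 under bicuculline (75.9% of control, adjusted p = 9.0e-04) and -0.15 ± 0.06 under KCl (89.9% of control, adjusted p = 0.037). The KCl call was lost without KCl array 3 (adjusted p = 0.091), control array 2 (0.10) or control array 3 (0.088), and with the slide as a block (0.14), and 9 of the 21 alternatives did not keep it. Probe 2 of Scn3a (A_51_P398037), with the same transcript identifier, was dim and noisier, at 0.0328, 0.0270 and 0.0327 under bicuculline, 0.0277, 0.0400 and 0.0355 under KCl, and 0.0400, 0.0376 and 0.0493 in controls. The bicuculline arrays lay below the controls and the KCl arrays overlapped them. Its log2 values of -0.45 ± 0.16 under bicuculline (adjusted p = 0.054) and -0.31 ± 0.16 under KCl (adjusted p = 0.12) did not pass the test. The bicuculline value of Scn3a probe 2 passed in 6 of the 19 alternatives, among them quantile normalization (adjusted p = 0.012), median scaling (0.027) and a fit of the 6 arrays compared alone (0.037). Its KCl value passed in 3 of the 19, at -0.62 with quantile normalization (adjusted p = 1.7e-03), -0.47 with median scaling (0.017) and -0.25 with normexp followed by quantile normalization (3.8e-03).

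**Figure D1:**
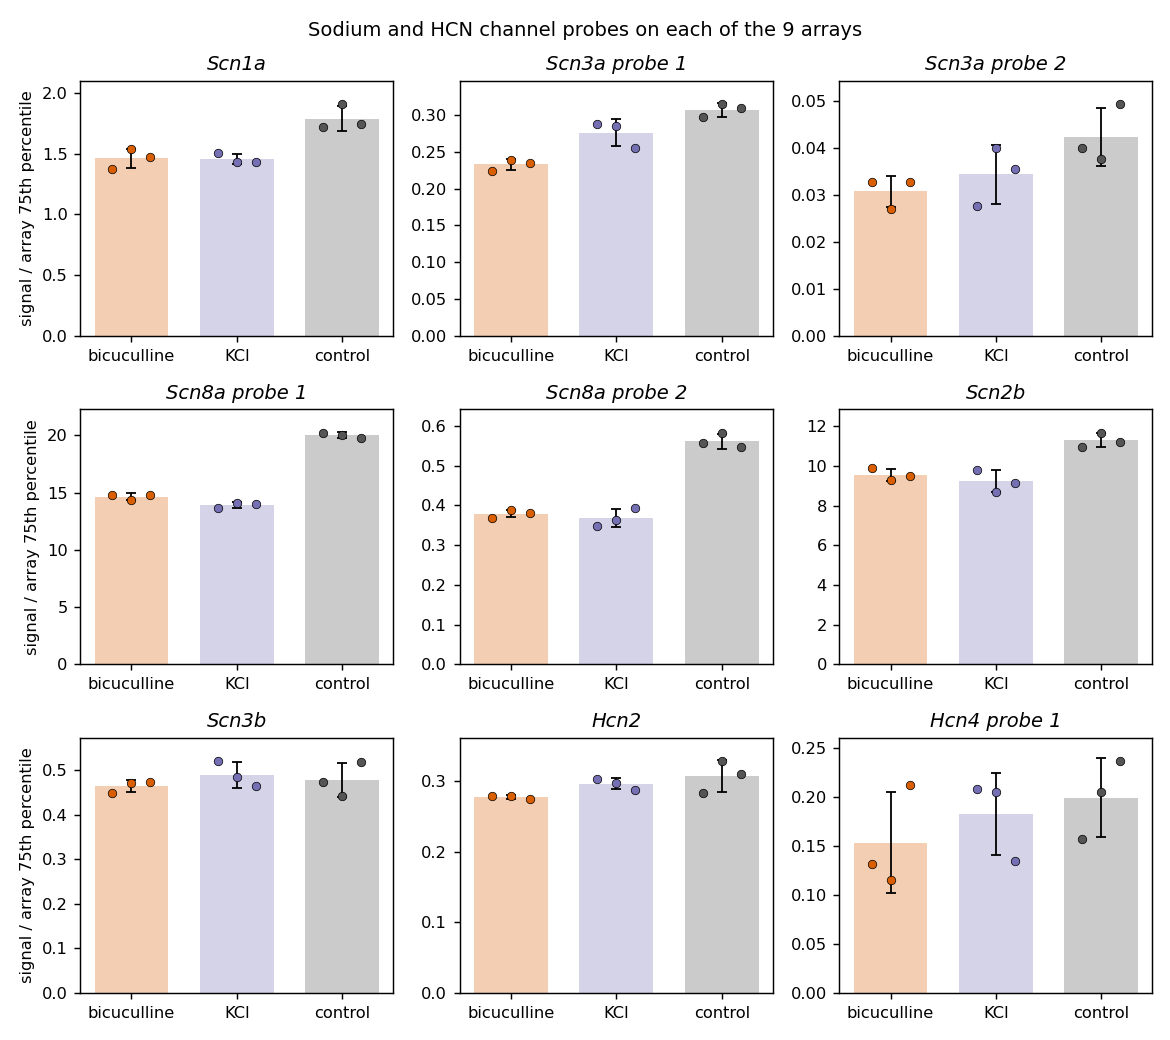
Relative signal (processed signal over the array's 75th percentile, linear axis from 0) of the 9 tested probes of sodium and HCN channel subunits, with 1 point per array, the bar at the group mean and the error bar at ±1 SD, for bicuculline, KCl and control (n = 3 arrays each). Both Scn8a probes, Scn1a, Scn3a probe 1 and Scn2b lie lower on all 6 stimulated arrays than on any control array, while the groups of Scn3b and Hcn4 overlap.

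Among the beta subunits, Scn2b fell and Scn3b did not pass. Scn2b encodes the beta2 subunit, which is joined to the alpha subunit by a disulfide bond and promotes its delivery to the membrane. Its probe (A_51_P212741) gave relative signals of 9.88, 9.29 and 9.50 under bicuculline, 9.82, 8.71 and 9.15 under KCl, and 11.0, 11.7 and 11.2 in controls. Neither stimulated group reached the lowest control. The log2 change was -0.24 ± 0.05 under bicuculline (84.6% of control, adjusted p = 7.6e-03) and -0.29 ± 0.05 under KCl (81.6% of control, adjusted p = 1.4e-03). Scn3b encodes beta3, which associates with the alpha subunit without a covalent bond. Its relative signals of 0.449, 0.471 and 0.474 under bicuculline, 0.520, 0.484 and 0.464 under KCl, and 0.473, 0.443 and 0.518 in controls (probe A_51_P184340) lay over one range. The 95% interval of its log2 difference ran from -0.19 to 0.12 for bicuculline and from -0.12 to 0.19 for KCl, so a change of the size seen in Scn8a lies outside both intervals.

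No HCN member passed the test on the scale used here. Hcn2 encodes a subunit expressed widely in thalamus and cortex. Its probe (A_52_P130814) gave relative signals of 0.279, 0.279 and 0.274 under bicuculline, 0.303, 0.298 and 0.288 under KCl, and 0.284, 0.328 and 0.310 in controls. The bicuculline arrays lay just below the lowest control, and the KCl arrays lay among the controls. The log2 difference was -0.14 ± 0.05 for bicuculline (95% interval -0.27 to -0.02, adjusted p = 0.069) and -0.05 ± 0.05 for KCl (-0.18 to 0.07, adjusted p = 0.42). The bicuculline value of Hcn2 passed without control array 1 (adjusted p = 0.012) and with quantile normalization (0.029), and its KCl value passed with median scaling, at -0.21 (adjusted p = 0.023).

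Hcn4 encodes the main pacemaker subunit of the sinoatrial node and is sparse in cortex. Its probe 1 (A_52_P292344) ranged from 0.115 to 0.212 under bicuculline, 0.134 to 0.208 under KCl and 0.157 to 0.236 in controls, with all groups overlapping. The intervals of its log2 difference, -1.05 to 0.23 for bicuculline and -0.77 to 0.50 for KCl, both include a change of the size seen in Scn8a. Probe 2 of Hcn4 (A_51_P162805) did not pass the filter. It was well above background on 2 of 3 bicuculline arrays, 0 of 3 KCl arrays and 2 of 3 control arrays, at relative signals of 0.0664, 0.0129 and 0.0149 under bicuculline, 0.00625, 0.00740 and 0.00385 under KCl, and 0.00496, 0.0164 and 0.0133 in controls. The highest of these, on bicuculline array 1, stood apart from the other 8.

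The median change of the members lay below that of all tested probes under both stimuli. Under bicuculline, 0 of the 9 tested probes rose and 5 fell, in 4 genes, where 39.9% of all tested probes were called, 17.4% higher and 22.5% lower. Under KCl, again 0 rose and 5 fell, where 69.3% of all tested probes were called, 36.3% higher and 32.9% lower. The median log2 change over the 9 probes was -0.40 under bicuculline, against -0.02 over all tested probes, and -0.29 under KCl, against 0.05 over all tested probes. The comparisons with control share the same control arrays, so the same 5 probes falling in both is not independent evidence. The share of all tested probes whose groups do not overlap was not counted, so separations given for single probes are descriptions. Between KCl and bicuculline, 1 of the 9 probes was called, where 60.6% of all tested probes were called, 34.6% higher and 26% lower. In bulk RNA, fewer cells of a type and less RNA per cell cannot be told apart.

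**Figure D2:**
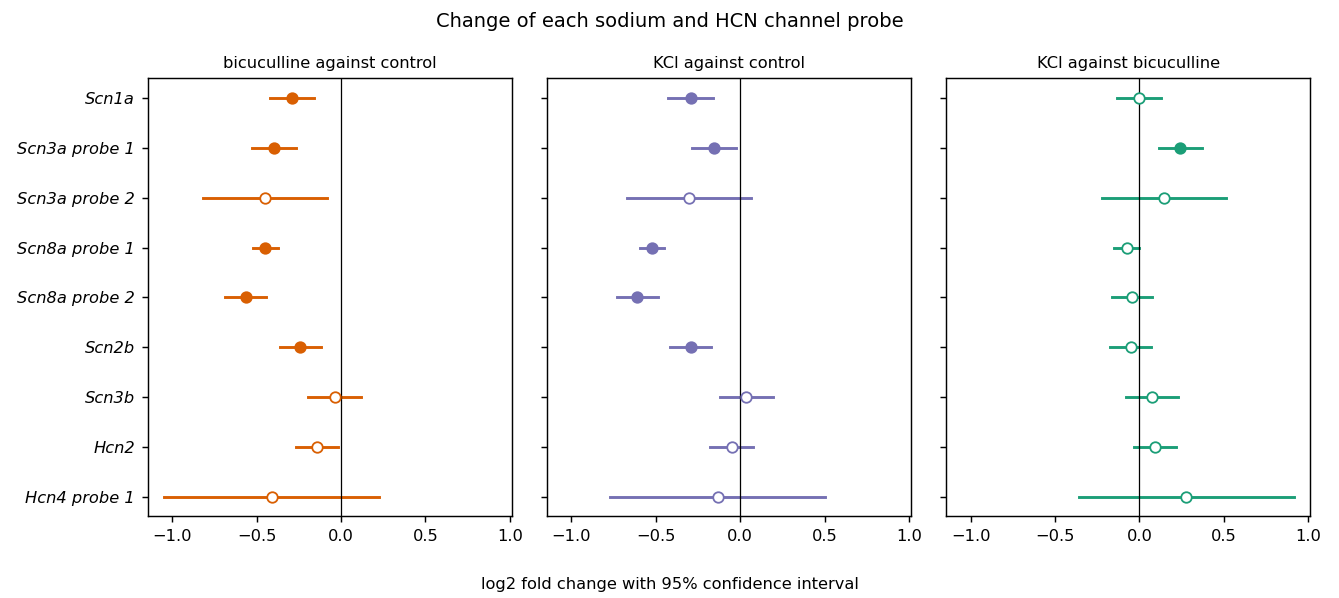
Log2 fold change with its 95% confidence interval from limma for the 9 tested probes of sodium and HCN channel subunits in 3 comparisons (n = 3 arrays per group), with filled points where the adjusted p over 27779 probes is under 0.05. The 5 filled points against control all lie to the left of 0 in both panels, from -0.24 to -0.57 under bicuculline and from -0.15 to -0.61 under KCl.

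The direct comparison of the stimuli asks whether depolarisation and release from inhibition gave different levels. Scn3a probe 1 was the member called, at a log2 difference of 0.24 ± 0.06 for KCl over bicuculline (adjusted p = 6.2e-03), and none of its KCl arrays overlapped its bicuculline arrays. On slide 2, which held 2 KCl arrays and 1 bicuculline array, the difference was 0.29. That call was lost in 5 of the 21 alternatives, which were median scaling (log2 0.12, adjusted p = 0.11), spike-in scaling (0.07, 0.51), normexp followed by quantile normalization (0.11, 0.075) or by the 75th percentile (0.55, 0.21), and the mean of both probes. Scn8a probe 1 gave a log2 difference of -0.07 ± 0.03 for KCl over bicuculline (95% interval -0.15 to -0.0013, adjusted p = 0.073) and passed under quantile normalization (-0.24, adjusted p = 1.6e-03), median scaling (-0.20, 0.024) and normexp followed by quantile normalization (-0.27, 4.2e-04). For Scn1a the interval ran from -0.13 to 0.13, for Scn2b from -0.17 to 0.07, and for Scn8a probe 2 from -0.16 to 0.08. Scn2b was called lower under KCl than under bicuculline with quantile normalization, alone (-0.18, adjusted p = 8.9e-03) or after normexp (-0.21, 6.7e-03). The intervals for Scn3b (-0.08 to 0.23) and Hcn2 (-0.03 to 0.22) also include 0.

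The arrays lay on 3 slides, and 1 of the 3 held a single array, KCl array 3. On slide 1, with 2 bicuculline and 2 control arrays, the log2 differences of the 5 probes called under bicuculline were -0.47 for Scn8a probe 1, -0.59 for Scn8a probe 2, -0.40 for Scn3a probe 1, -0.32 for Scn1a and -0.24 for Scn2b. On slide 2, with 1 array of each, they were -0.41, -0.52, -0.40, -0.24 and -0.24 in the same order. KCl against control could be read on slide 2 alone, with 2 KCl arrays and 1 control array, at -0.51 for Scn8a probe 1, -0.62 for Scn8a probe 2, -0.11 for Scn3a probe 1, -0.24 for Scn1a and -0.28 for Scn2b. With the slide as a block, Scn3a probe 1 was the member probe that lost its call against control. Hcn4 probe 1, which was not called, read highest in each group on slide 2. It gave 0.212 there under bicuculline, 0.208 and 0.205 under KCl and 0.236 in the control. Its log2 difference under bicuculline was -0.54 on slide 1 and -0.16 on slide 2. Between KCl and bicuculline it was -0.04 on slide 2, against 0.28 over all arrays. The part of the slide in this spread was not tested.

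Cell type markers were read beside these falls. The summed relative signal of the 6 neuronal markers was 112 to 122 under bicuculline, 123 to 128 under KCl and 119 to 128 in controls. Such a sum follows its brightest probes, and single markers went both ways. Of the 6 neuronal markers, 2 fell and 4 did not pass under bicuculline (Rbfox3 -0.25, adjusted p = 3.3e-03, and Tubb3 -0.16, 0.012), while under KCl 2 rose, 1 fell (Tubb3 -0.51, adjusted p = 9.2e-06) and 3 did not pass. The 5 excitatory neuron markers summed to 8.55 to 8.78 under bicuculline, 9.17 to 9.55 under KCl and 6.69 to 6.74 in controls, and the 8 interneuron markers to 94.1 to 97.2, 112 to 120.5 and 83.3 to 85.2 in the same groups. Of the 5 excitatory markers, 4 rose and 1 fell under bicuculline (Slc17a7 -0.16, adjusted p = 0.015), and 5 rose under KCl. Of the 7 interneuron markers tested, 3 rose and 1 fell under bicuculline (Lhx6 -0.29, adjusted p = 2.9e-03), and 6 rose and 1 fell under KCl (Lhx6 -0.34, adjusted p = 5.7e-04). Beside these marker counts, 42.3% of all genes read by their brightest tested probe were called under bicuculline, 16.7% higher and 25.7% lower. Under KCl 70.8% of all such genes were called, 35.3% higher and 35.5% lower. Sums for astrocyte markers were 58.5 to 62.7 under bicuculline, 71.8 to 76.3 under KCl and 58.5 to 65.5 in controls, and for vascular and fibroblast markers 23.7 to 26.1, 42.7 to 47.4 and 24.2 to 25.5. Microglial markers summed to 2.00 to 2.99 under bicuculline, 2.75 to 4.19 under KCl and 2.40 to 2.59 in controls, oligodendrocyte lineage markers to 25.5 to 27.2, 29.6 to 30.6 and 27.2 to 28.2, and markers of cycling cells to 5.50 to 5.91, 5.15 to 5.67 and 5.90 to 6.82. Mog, which marks mature oligodendrocytes, and Pecam1, which marks endothelium, were not well above background on any array. The part of these marker shifts in the member values was not tested.

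The way the arrays were scaled moved the KCl values of Scn8a probe 1, Scn2b and Scn1a more than their bicuculline values. The median log2 change of all tested probes under KCl was 0.05 as reported, -0.05 after quantile normalization, -0.11 after median scaling, -0.10 after scaling to spike-in probes, -0.04 after normexp background correction with quantile normalization, and 0.29 after normexp with the 75th percentile. Relative to that median, Scn8a probe 1 lay between -1.01 and -0.57 under KCl over the 6 settings and between -0.43 and -0.41 under bicuculline. Scn2b lay between -0.78 and -0.34 under KCl and between -0.22 and -0.21 under bicuculline on the same scale. Scn1a lay between -0.55 and -0.14 under KCl and between -0.27 and -0.24 under bicuculline. Scn8a probe 2 did not move more under KCl, at -0.66 to -0.57, than under bicuculline, at -0.55 to -0.45. Nor did Hcn2, at -0.10 to -0.02 under KCl and -0.14 to -0.04 under bicuculline. Under KCl, Scn8a probe 1 and Scn2b were called in all 6 settings, while Scn1a lost its call under both normexp settings (adjusted p = 0.061 with quantile normalization and 0.14 with the 75th percentile). Scn8a probe 2 lost its KCl call in 1 setting, normexp followed by the 75th percentile, at -0.31 (adjusted p = 0.28), against -0.61 as reported. Under bicuculline, normexp with the 75th percentile ended all 5 calls (adjusted p = 0.23 to 0.86) although the log2 changes stayed between -0.52 and -0.23. In that setting the median SD between replicates was 0.217 log2, against 0.075 as reported. Scn2b also lost its bicuculline call under spike-in scaling (adjusted p = 0.15).

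**Figure D3:**
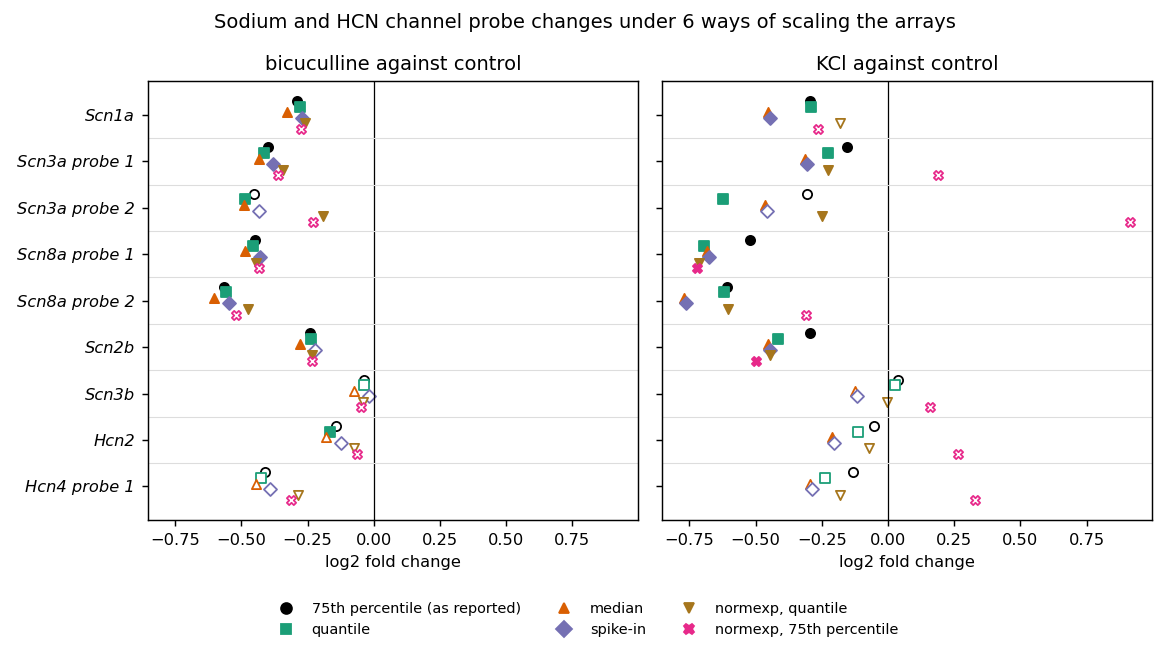
Log2 fold change against control of the 9 tested probes of sodium and HCN channel subunits under 6 ways of background correction and scaling, with filled symbols where the adjusted p is under 0.05 (n = 3 arrays per group). The symbols of Scn8a, Scn1a and Scn2b lie left of 0 in every setting. Under KCl, both probes of Scn3a and those of Hcn2 and Hcn4 move right of 0 with normexp and the 75th percentile.

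The sequence just upstream of the start site is shown for the 3 genes that were lower under both stimuli and have a window in the RefSeq promoter table. Each run holds 250 bases before the annotated start, from assembly GRCm38.p6. The Scn8a window is chr15:100870395-100870644 on the plus strand with 68.0% G and C, the Scn1a window is chr2:66440838-66441087 on the minus strand with 46.8%, and the Scn2b window is chr9:45117626-45117875 on the plus strand with 38.4%.
Scn8a: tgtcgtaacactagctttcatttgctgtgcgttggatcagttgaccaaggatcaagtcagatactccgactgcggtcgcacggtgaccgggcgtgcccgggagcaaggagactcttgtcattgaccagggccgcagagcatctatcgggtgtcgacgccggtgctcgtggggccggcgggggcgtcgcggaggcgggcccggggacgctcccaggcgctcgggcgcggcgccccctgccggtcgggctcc
Scn1a: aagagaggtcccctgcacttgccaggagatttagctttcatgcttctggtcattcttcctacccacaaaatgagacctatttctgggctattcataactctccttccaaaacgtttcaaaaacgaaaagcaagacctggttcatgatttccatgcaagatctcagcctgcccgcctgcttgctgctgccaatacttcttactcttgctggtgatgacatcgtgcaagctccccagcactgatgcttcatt
Scn2b: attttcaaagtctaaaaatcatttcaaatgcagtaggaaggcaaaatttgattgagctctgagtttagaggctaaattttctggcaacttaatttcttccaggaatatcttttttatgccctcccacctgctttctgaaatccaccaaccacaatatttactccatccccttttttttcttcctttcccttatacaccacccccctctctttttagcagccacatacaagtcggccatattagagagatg
Windows were searched on both strands for TGANTCA, the element bound by AP-1 dimers of Fos and Jun proteins, and for TGACGTCA, the full cyclic AMP response element. Neither motif contains the other. Neither was found in the 7 upstream windows of the 6 members with an entry, which are Scn1a, Scn8a (2 windows), Scn2b, Scn4b, Hcn2 and Hcn4. Of the 32851 windows in the table, 6.75% held the AP-1 letters and 1.55% the full element in their 250 upstream bases. The absence of a match says only that these letters are not in these windows.

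Of 7 other subunit genes of the same families listed here, 6 had a probe and 3 (Scn2a, Scn4a and Hcn3) were tested, by the brightest probe of each. Under bicuculline Scn2a fell and 2 did not pass, where 42.3% of the 14061 genes read this way were called, 16.7% higher and 25.7% lower. Under KCl Scn2a and Hcn3 fell and 1 did not pass, where 70.8% of genes were called, 35.3% higher and 35.5% lower. For KCl against bicuculline the 3 genes did not pass in limma (0 had an unadjusted p under 0.05), where 63.1% of genes were called, 35% higher and 28.2% lower. Their median log2 difference was -0.08 under bicuculline and -0.11 under KCl, against -0.03 and 0.02 over all genes read this way.

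Scn2a encodes Nav1.2, the alpha subunit of the proximal axon initial segment and of unmyelinated axons, and its probes disagreed. Probes 1 and 2 of Scn2a fell, with log2 changes of -0.22 ± 0.04 and -0.30 ± 0.06 under bicuculline (adjusted p = 4.2e-03 and 3.7e-03) and of -0.26 ± 0.04 and -0.31 ± 0.06 under KCl (adjusted p = 9.2e-04 and 1.4e-03). The bicuculline calls of Scn2a probes 1 and 2 were lost with spike-in scaling, where probe 1 had adjusted p = 0.14. They were also lost (adjusted p = 0.85 and 0.39) when normexp was combined with the 75th percentile, which ended the KCl call of probe 1 too (adjusted p = 0.16). Probe 3, which carries the same RefSeq identifier, gave relative signals of 0.0957, 0.0899 and 0.101 under bicuculline, 0.117, 0.109 and 0.115 under KCl, and 0.0861, 0.0928 and 0.0944 in controls. Its KCl arrays were above all others, for a log2 change of 0.32 ± 0.06 (adjusted p = 1.5e-03), and its bicuculline value was 0.07 ± 0.06 (adjusted p = 0.39). Against control, the KCl call of Scn2a probe 3 was lost under each of the 5 other scalings, at 0.14 to 0.87 with adjusted p = 0.050 to 0.17. Scn2a probe 3 was also called higher under KCl than under bicuculline (0.25 ± 0.06, adjusted p = 6.5e-03), while probes 1 and 2 were not called there. That difference was not followed through the alternatives.

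Hcn3, which encodes another HCN subunit, gave relative signals of 3.65, 3.64 and 3.60 under bicuculline, 3.53, 3.71 and 3.48 under KCl, and 3.82, 3.90 and 3.84 in controls. All stimulated arrays lay below all control arrays, and the bicuculline and KCl arrays overlapped. The log2 change of Hcn3 was -0.08 ± 0.03 under bicuculline (adjusted p = 0.088) and -0.11 ± 0.03 under KCl (adjusted p = 0.022). That KCl call was not kept by 10 of the 20 alternatives, over which the adjusted p ran from 2.4e-03 to 0.31. Those 10 include leaving out KCl array 1 or 3 or control array 2 or 3 (adjusted p = 0.062, 0.067, 0.060 and 0.053). Scn4a, which encodes Nav1.4 of skeletal muscle, gave relative signals of 0.105, 0.0960 and 0.179 under bicuculline, 0.228, 0.223 and 0.143 under KCl, and 0.0776, 0.145 and 0.147 in controls. The groups of Scn4a overlapped, and its log2 change was 0.04 ± 0.34 under bicuculline (adjusted p = 0.94) and 0.71 ± 0.34 under KCl (adjusted p = 0.094).

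**Figure D4:**
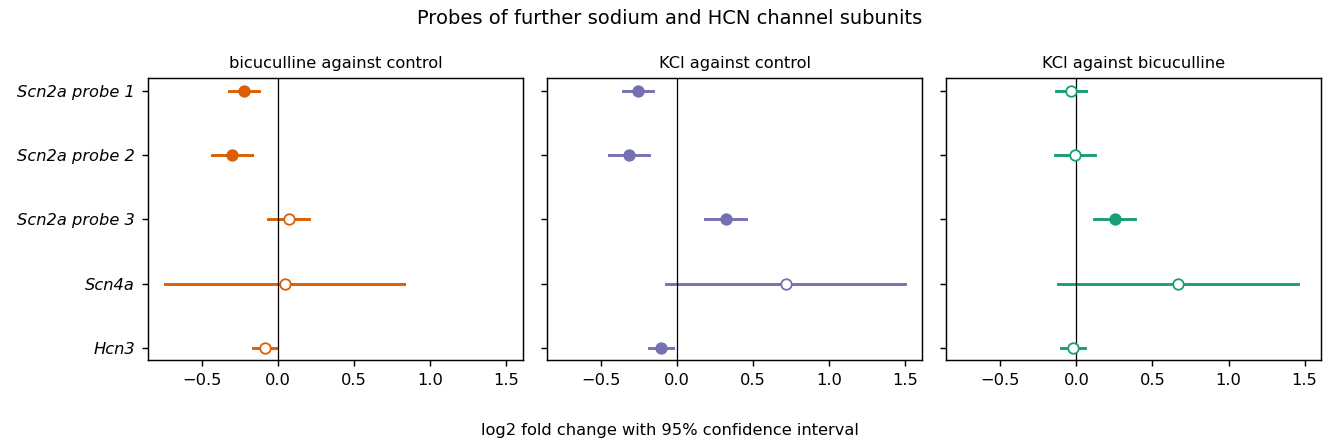
Log2 fold change with its 95% confidence interval from limma for every tested probe of Scn2a, Scn4a and Hcn3 in 3 comparisons (n = 3 arrays per group), with filled points where the adjusted p is under 0.05. Scn2a probe 3 lies on the other side of 0 from probes 1 and 2 under KCl, and the Scn4a interval is the widest of these probes.

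Partners of these channels at the axon initial segment and elsewhere were called in shares close to those of all genes read by their brightest probe. Of the 19 genes listed and tested, 4 rose and 3 fell under bicuculline, where 42.3% of all such genes were called, and 7 rose and 6 fell under KCl, where 70.8% were, with median log2 differences of 0.06 and 0.10. Unc80 and Unc79 encode large proteins of the NALCN sodium leak channel complex, and they went apart. Unc80 rose under KCl by a log2 change of 1.54 ± 0.03 (adjusted p = 1.5e-08) and under bicuculline by 0.15 ± 0.03 (adjusted p = 6.8e-03), although its dimmer probe gave -0.25 ± 0.21 under KCl (adjusted p = 0.31) and the bicuculline call was lost under 4 of the 5 other scalings. Unc79 was lower, with log2 changes of -0.87 ± 0.04 under KCl (adjusted p = 8.9e-07) and -0.49 ± 0.04 under bicuculline (adjusted p = 6.6e-05), the bicuculline call being lost when normexp came before the 75th percentile (adjusted p = 0.083). Nedd4l, a ubiquitin ligase that removes sodium channels from the membrane, rose under KCl by log2 0.74 ± 0.06 (adjusted p = 1.3e-05) and under bicuculline by 0.18 ± 0.06 (adjusted p = 0.041), a bicuculline call that 10 of the 20 alternatives did not keep. Kcne2, an accessory subunit of several potassium channels and of HCN channels, was well above background on 0 of 3 KCl arrays and on 3 of 3 control arrays, and was at least 1.34-fold lower under KCl than in controls. Kcne2 passed the filter through its control arrays alone, so its place among the 6 that fell is a description and no test is read from it.

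Among genes of the sodium pump and of sodium-activated potassium channels, 6 of the 7 listed here were tested. Under bicuculline 1 rose and 2 fell, and under KCl 2 rose and 2 fell, against 42.3% and 70.8% of all genes called, with median log2 differences of -0.08 and 0.02. Atp1b1, a beta subunit of the pump, rose by log2 0.45 ± 0.07 under bicuculline (adjusted p = 1.4e-03) and 0.72 ± 0.07 under KCl (adjusted p = 3.9e-05). Kcnt1 and Kcnt2 encode potassium channels opened by intracellular sodium. Kcnt2 was lower, with log2 changes of -0.71 ± 0.04 under bicuculline (adjusted p = 4.9e-06) and -0.92 ± 0.04 under KCl (adjusted p = 3.4e-07), while its dimmer probe gave -0.17 ± 0.05 under bicuculline (adjusted p = 0.028) and 0.02 ± 0.05 under KCl (adjusted p = 0.74). Kcnt1 was lower, with log2 changes of -0.32 ± 0.05 under bicuculline and -0.27 ± 0.05 under KCl (adjusted p = 1.1e-03 each), and the dimmest of its 3 probes gave 0.14 ± 0.30 under bicuculline (adjusted p = 0.76) and 0.86 ± 0.30 under KCl (adjusted p = 0.033). Normexp before the 75th percentile ended the bicuculline calls of Atp1b1 (adjusted p = 0.36), Kcnt2 (0.069) and Kcnt1 (0.25) and the KCl calls of Atp1b1 (0.050) and Kcnt1 (0.076), and spike-in scaling ended the bicuculline call of Kcnt1 too.

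Scn8a was the member with a log2 change of at least 0.5 by its brightest probe, and the genes closest to it were sought over the 9 arrays, each set relative to its own control mean. Among 13297 candidate genes, the smallest root mean square log2 differences from Scn8a were those of Gtf2ird2 (0.026), Pcnt (0.035) and Ankrd6 (0.037). Gtf2ird2 had log2 changes of -0.47 under bicuculline and -0.51 under KCl, Pcnt of -0.46 and -0.48, and Ankrd6 of -0.49 and -0.55. These are the closest of many genes and describe likeness of pattern alone.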

How the data were processed

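Expression was read on 9 one-colour Agilent mouse arrays labelled with cyanine 3 from 100 ng of RNA, per the labels' protocols, and samples were grouped by the labels into 3 groups of 3. The deposited intensity is the processed signal of Agilent Feature Extraction, given as 10.7.3.1 by the file headers and as 10.5.1.1 by the submitters' processing notes, with background subtracted within each array and no scaling between arrays. The deposited value table equalled it on all 45018 features. Here log2 intensity minus each array's 75th percentile over the 43379 non-control spots was used, spots marked as outliers were left out (0 values of the members) and spots of 1 probe were averaged. RefSeq identifiers were turned into symbols with a GRCm38.p6 table, which named 26888 of 41174 probes. The tested probes were those well above background on all arrays of 1 or more groups and measured on at least 2 arrays per group. limma 3.58.1 in R 4.3.3 was fitted to all 9 arrays with group as the only term, two-sided, with Benjamini-Hochberg adjustment over 27779 probes and a threshold of 0.05. Errors beside log2 changes are limma's standard errors, n is 3 arrays per group, and precision is limited by these 9 arrays (6 residual degrees of freedom). Where a group had 0 arrays well above background, the fold is a bound, set against the lowest signal marked well above background on each array.

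The scripts were tested on simulated data for KCl against control. Changes of log2 0.25, 0.5, 1 and 2 were recovered in 22%, 66%, 82% and 98% of cases. Few probes were changed in that simulation, unlike in these data, so recovery here may differ. The member genes and the gene lists were chosen with earlier results of these data known, so they are no independent support. Other genes were read by their brightest tested probe. Some genes of these lists are not reported here and enter no count of a list. Up to 4 genes of a list are named, those with the largest change against control among those called. Hcn3, the remaining probes of named genes, the 8 activity genes' counts and the activity genes that fell are given beside them. Same-numbered bicuculline and control arrays deviated together from their group means (correlations of 0.34, 0.21 and 0.67), which was taken as pairing. Number 3 of both lay on slide 2 while numbers 1 and 2 lay on slide 1, so pairing and slide cannot be told apart. The fit with group as its only term uses neither. Alternatives were other scalings, normexp background correction (offset 50), other filters, replicate and slide blocks, other priors, 1 probe or the mean of probes per gene, and leaving out each array. Probe and protein sequences were not used here.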

Additional observations from a re-analysis of the deposited data

How the results depend on the processing

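Without 1 array at a time, the count of member probes called ran from 5 to 6 under bicuculline, from 4 to 5 under KCl and stayed at 1 for KCl against bicuculline, and counts over all probes ran from 9163 to 9844, from 17533 to 18489 and from 15050 to 15745. Normexp with the 75th percentile left 0 member calls under bicuculline, 2 under KCl and 0 between the stimuli, and 1029, 6112 and 3063 calls over all probes, against 11097, 19245 and 16845 as reported. Spike-in scaling gave 4717 calls over all probes under bicuculline. Between the stimuli it gave 0 member calls, beside 11362 over all probes. Quantile normalization gave 3 member calls between the stimuli, beside 15967 over all probes, and normexp with quantile normalization 2, beside 15001. The cause was not tested. Of all calls, the share higher was 43.6% under bicuculline, 52.5% under KCl and 57.1% between the stimuli as reported. It was 59.0% under bicuculline with spike-in scaling and 66.0% with normexp and the 75th percentile. Under KCl it was 42.1% with quantile normalization, 35.5% with median scaling and 36.6% with spike-in scaling. Between the stimuli it was 44.6%, 37.0% and 29.7% with these, and 45.2% with normexp and quantile normalization.

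With the replicate number as a block in all 9 arrays, 5 member probes were called under bicuculline, 4 under KCl (Scn3a probe 1, adjusted p = 0.051) and 1 between the stimuli. Over all 27779 tested probes that fit called 10627, 18998 and 16592. A fit of the 6 arrays compared gave 6, 4 and 1 member calls without a block, and the same member counts with it, an alternative chosen after seeing the data. Over all probes these fits called 11250, 18645 and 16274 without the block, and 11596, 16826 and 14239 with it. In both fits of the 6 arrays, Scn3a probe 2 was called under bicuculline (adjusted p = 0.037 without the block and 0.014 with it). The KCl calls of Scn3a probe 1 (0.066 and 0.11) and Hcn3 (0.054 and 0.095) were lost in both. KCl and control arrays of one number did not deviate together (correlations of -0.10, -0.09 and -0.49), nor did KCl and bicuculline arrays (-0.06, -0.17 and -0.47), so there the block is no pairing. In all 9 arrays the block changed no other call of a member.

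Signs turned for values that had passed no test, and for Scn3a probe 1 under KCl, which had. With normexp and the 75th percentile Scn3a probe 1 gave 0.19 under KCl and did not pass. Kcne2, from which no test is read, also turned there under KCl (0.87). In that setting Scn3a probe 2 (0.91), Hcn2 (0.26) and Hcn4 probe 1 (0.33) also turned under KCl, and Scn1a (0.010) and Scn8a probe 2 (0.21) between the stimuli. With median scaling, Scn3b turned under KCl (-0.12), and Scn3b (-0.049) and Hcn2 (-0.031) between the stimuli. With spike-in scaling the same 3 gave -0.12, -0.097 and -0.078, and Scn3a probe 2 gave -0.024 between the stimuli. With normexp and quantile normalization Scn3b gave -0.0031 under KCl, and Scn1a 0.080 and Scn3a probe 2 -0.057 between the stimuli. Between the stimuli Scn3a probe 2 gave -0.14 with quantile normalization and -0.046 with the slide block, where Scn1a gave 0.023. Leaving out 1 array turned uncalled values alone: under bicuculline Scn3b ranged from -0.091 to 0.022, under KCl Scn3b from -0.017 to 0.096 and Hcn4 probe 1 from -0.30 to 0.073, and between the stimuli Scn1a from -0.045 to 0.034. Dim probes (Scn3a probe 2, both Hcn4 probes) limit what can be said of their genes.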

Other observations

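Different probes of a single gene gave different changes in several partners of these channels, chosen after their values were seen. Fgf14 encodes an intracellular fibroblast growth factor homologue that binds sodium channels at the axon initial segment. The 3 probes of Fgf14 gave log2 changes of 0.27 ± 0.06, 0.84 ± 0.26 and 1.55 ± 0.05 under KCl (limma, SE, adjusted p = 3.2e-03, 0.019 and 8.3e-08), and the last of these, for the Fgf14 probe A_52_P168549, carries another RefSeq transcript identifier than the others. The KCl calls of these Fgf14 probes held in 16 of 20, 11 of 18 and 19 of 19 alternatives. Ank3 encodes ankyrin-G, the scaffold that holds sodium channels at the initial segment. Its brighter probe fell under both stimuli, with log2 changes of -0.41 ± 0.04 under bicuculline and -0.37 ± 0.04 under KCl (adjusted p = 2.3e-04 and 1.5e-04), and normexp before the 75th percentile ended the bicuculline call of Ank3 (adjusted p = 0.29). The dimmer Ank3 probe gave -0.12 ± 0.05 under bicuculline (adjusted p = 0.12) and rose by 0.18 ± 0.05 under KCl (adjusted p = 0.018), a call that 7 of the 19 alternatives did not keep. Fgf12 gave -0.14 ± 0.04 by its brighter probe and 0.38 ± 0.05 by its dimmer probe under KCl (adjusted p = 0.014 and 1.5e-04).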
